A study of Mus musculus with 8 samples.

Results

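The genes described here are 50 mouse genes of the mitotic spindle and kinetochore, out of 27179 genes in the count table of the series. They were taken from a list of mitotic kinases, spindle checkpoint proteins, kinesins, centromere and kinetochore proteins, anaphase regulators and cytokinesis genes, and all 50 were found in the table by symbol. The list also sets *Nsl1*, a subunit of the MIS12 complex, against the other 3 subunits of that complex. All 50 genes passed the filter on low counts.

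RNA was sequenced from early large pre-B (early LPre-B) and small pre-B (sPre-B) cells sorted from mouse bone marrow, in 8 libraries with 2 per group. Every mouse was *Upf1* Flox/Flox and carried the *Igh* B1-8hi/+ knock-in, a heavy chain gene that is already rearranged. The cKO/*Igh* B1-8hi groups were in addition *Mb1* Cre/+, which drives Cre in the B cell lineage, and the Ctrl/*Igh* B1-8hi groups were *Mb1* +/+ and so had no Cre. UPF1 is an RNA helicase needed for nonsense-mediated mRNA decay (NMD), and the comparisons ask how its deletion alters the transcriptome at each stage and between the stages. The mice were age-matched adults of both sexes. Deletion of *Upf1* and presence of the Cre allele, which lies in *Cd79a*, cannot be told apart in this design. The labels do not say whether replicates came from separate mice, so the *P* values measure the spread between libraries.

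The kinetochore is the protein assembly that links a chromosome to spindle microtubules. Its inner part is built from centromere proteins, and its outer part from the KNL1, MIS12 and NDC80 complexes, of which NDC80 binds the microtubule. Checkpoint proteins delay anaphase until every kinetochore is attached, Aurora and Polo kinases correct and drive attachment, and kinesins move chromosomes and shape the spindle. Most of these genes are transcribed in G2 and M phase. Large pre-B cells divide after the pre-B cell receptor appears, and small pre-B cells leave the cell cycle to rearrange light chain genes.

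Libraries held 68516857 to 160426338 counts, which puts 3 counts at 0.0217 to 0.0426 CPM (counts scaled to the library's TMM-normalized total), a limit that covers counting error only. *Upf1* had 237 and 213 CPM in Ctrl and 244 and 258 in cKO early LPre-B libraries, and 186 and 198 in Ctrl and 282 and 293 in cKO sPre-B libraries. A gene-level count also takes in the exons outside the floxed part, so it does not check the genotype. The B lineage markers *Pax5* and *Cd79b* were present in every library. *Il2ra*, which encodes the CD25 used for the sPre-B gate, lay between 18.6 and 53.6 CPM in early LPre-B and between 476 and 532 in sPre-B libraries. The 10 myeloid markers summed to 55.5 to 143 CPM in early LPre-B and 217 to 389 CPM in sPre-B libraries, and were lower in cKO than in Ctrl libraries at each stage. Of 10 erythroid markers 9 were found, which summed to at most 39.4 CPM, and the 10 T and NK cell markers summed to at most 6.81. The 8 mature B and plasma cell markers summed to 255 and 293 CPM in Ctrl and 344 and 362 CPM in cKO early LPre-B libraries, and to 541 and 624 CPM in Ctrl and 599 and 893 CPM in cKO sPre-B libraries. In cKO sPre-B cells 3 of the 8 were higher and 1 lower, against 19.8% and 14.9% of all genes, and *Fcer2a*, which encodes CD23 of mature B cells, had 6.03 and 5.33 CPM in Ctrl and 83.8 and 29.9 CPM in cKO libraries (Log2FC 3.32). Of 12 precursor B cell markers, 5 were lower and 0 higher in cKO early LPre-B cells, against 16.9% and 14.5% of all genes, and in sPre-B cells 2 were higher and 2 lower. *Rag1*, a subunit of the V(D)J recombinase, had 409 and 385 CPM in Ctrl and 44 and 74.9 CPM in cKO early LPre-B libraries (Log2FC −2.74). No marker found was at 0 in all libraries of a group. The Ctrl replicate 2 libraries of both stages had 19733 and 28205 counts of Y-linked genes, whereas the other 6 libraries had at most 34. The part of the marker levels in the results was not tested, and results with a term for Y-linked counts are given beside the values they touch. That term rests on the difference between the Ctrl replicates alone. It cannot be told apart from any other difference between them.

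Promoters of genes that rise in G2 and M phase are known for a short element, the cell cycle genes homology region, that is bound by the DREAM and MuvB complexes, and for CCAAT boxes bound by NF-Y. RefSeq (GRCm38.p6) gave a promoter window, 250 bases before to 50 bases after a start, for 43 of the 50 genes, and gave none for *Aurkb*, *Kif20a*, *Spc24*, *Nsl1*, *Incenp*, *Ska1* and *Tpx2*. TTTGAA on either strand, or its known variant TTCGAA, was found for 30 of these 43 genes (69.8%), against 21.7% of the 27025 genes with a window. CCAAT on either strand was found for 30 of 43 (69.8%), against 41.1%, and both sets of letters for 23 of 43 (53.5%), against 8.61%. Occurrences of the different letters may share bases, and a match is a match of letters only. The stretches of 60 bases belong to the genes whose values are given in full further down and whose window held the first of these elements before the start, and they show how these letters lie in genes that fell together. Each runs 5′ to 3′ on the strand of its gene, with the searched letters, or their reverse complements, in capitals. *Cdc20* lies at chr4:118437344-118437403 on the minus strand, *Bub3* at chr7:131560287-131560346 on the plus strand, *Cenpn* at chr8:116921680-116921739 on the plus strand, *Kif15* at chr9:122951021-122951080 on the plus strand, *Cenpm* at chr15:82244400-82244459 on the minus strand and *Pmf1* at chr3:88410513-88410572 on the minus strand.
Cdc20: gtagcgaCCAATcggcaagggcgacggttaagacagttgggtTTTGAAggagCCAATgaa
Bub3: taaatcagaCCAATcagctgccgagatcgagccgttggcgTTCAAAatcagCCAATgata
Cenpn: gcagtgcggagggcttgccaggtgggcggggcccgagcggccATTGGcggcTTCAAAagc
Kif15: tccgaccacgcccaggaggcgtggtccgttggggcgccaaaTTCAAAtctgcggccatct
Cenpm: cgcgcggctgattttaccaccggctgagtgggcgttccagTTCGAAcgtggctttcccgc
Pmf1: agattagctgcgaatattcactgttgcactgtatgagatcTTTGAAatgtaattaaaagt

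Between early LPre- and sPre-B libraries of the Ctrl/*Igh* B1-8hi groups, 49 of the 50 genes fell with an adjusted *P* below 0.05 in the quasi-likelihood test of edgeR, and none rose. All 49 also had an unadjusted *P* under 0.05, and DESeq2 gave 49 lower and 0 higher. Over all 17700 genes tested, 31.1% fell and 29.1% rose. The median Log2FC of the 50 genes was −3.03, an 8.16-fold fall, against 0.02 over all genes tested. The libraries of the 49 genes did not overlap between the stages, which held for 40.3% of all genes in this direction and for 40.5% in the other. Summed over the 50 genes, the level was 11800 and 12760 CPM in the early LPre-B libraries and 2092 and 1238 CPM in the sPre-B libraries, or 1.18% and 1.28% against 0.209% and 0.124% of normalized counts. The stages were sorted by size, with early LPre-B cells taken as large and sPre-B cells as small. In bulk RNA, fewer mitotic cells and less of an RNA per cell cannot be told apart.

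**Figure D1:**
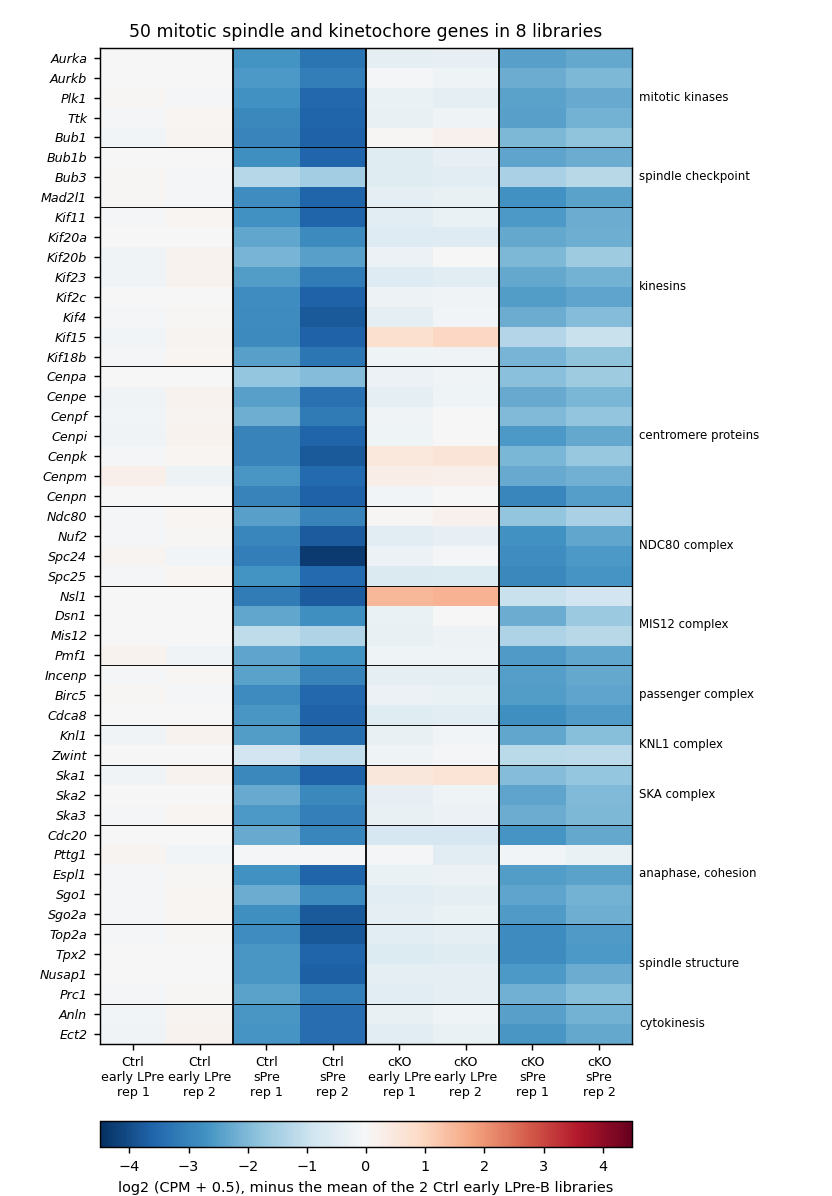
Level of the 50 genes (rows, grouped by role) in the 8 libraries (columns), as log2 of CPM plus 0.5 minus the mean of the Ctrl early LPre-B libraries of the same gene, with blue for lower and red for higher levels. Nearly every row turns blue in the sPre-B columns, most deeply in Ctrl sPre-B replicate 2, *Pttg1* stays near white, and *Nsl1* and *Kif15* are red in the cKO early LPre-B columns.

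In Ctrl cells *Spc24* had the lowest Log2FC with all libraries. It encodes a subunit of the NDC80 complex. It had 86.4 and 74.2 CPM in early LPre-B and 8.78 and 3.62 CPM in sPre-B libraries, a Log2FC of −3.69 (SE 0.34, adjusted *P* 2.98e-05 in edgeR's quasi-likelihood fit). *Cenpk*, an inner kinetochore protein, went from 27.5 and 31.1 to 3.23 and 1.69 CPM (Log2FC −3.57), with 233 exon bases shared with *Ppwd1* on the other strand. *Nsl1* went from 59.0 and 60.6 to 6.34 and 3.99 CPM (Log2FC −3.53). In all 3 genes the sPre-B libraries lay far below the early LPre-B libraries, and replicate 2 of the sPre-B cells was the lower one. Without sPre-B replicate 1 the Log2FC of *Spc24*, *Cenpk* and *Nsl1* was −4.41, −4.05 and −3.84, and without replicate 2 it was −3.13, −3.12 and −3.18, so that *Spc24* no longer had the lowest value.

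The median falls of most roles lay close together, and no test between roles was run. The mitotic kinases *Aurka*, *Aurkb*, *Plk1*, *Ttk* and *Bub1* fell by 2.84 to 3.31 on the log2 scale, and the Log2FC of the 8 kinesins lay between −3.26 and −2.28. The 4 NDC80 genes had a median Log2FC of −3.20, the 3 passenger complex genes −3.08, and the genes of chromosome and spindle structure, *Top2a*, *Tpx2*, *Nusap1* and *Prc1*, −3.05. Shallower falls were seen in *Zwint* (−1.01), a KNL1 partner, *Mis12* (−1.26), *Bub3* (−1.42), a checkpoint protein, and *Cenpa* (−1.86), the centromeric histone. *Pttg1*, the securin that holds separase inactive until anaphase, was the exception. It had 10.5 and 8.77 CPM in early LPre-B and 8.95 and 9.06 CPM in sPre-B libraries, which overlapped, with a Log2FC of −0.10 (SE 0.18, adjusted *P* of 0.65). *Zwint*, *Cenpa* and *Pttg1* were singled out after their values were seen.

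In cKO/*Igh* B1-8hi mice the same transition lowered 49 of the 50 genes and raised none, against 31.1% lowered and 31.6% raised over all genes tested, and DESeq2 and the unadjusted *P* gave 49 and 0 too. The median Log2FC was −2.0, a 4.01-fold fall, against 0.05 over all genes. *Pttg1* again did not pass, with a Log2FC of 0.04 (SE 0.18). Of the 49 that fell, *Cenpn*, an inner kinetochore protein that reads the centromeric histone, fell furthest with all libraries. Its levels were 98.2 and 105 CPM in early LPre-B and 13.4 and 18.8 CPM in sPre-B libraries (Log2FC −2.66, SE 0.22). *Spc24* went from 66.6 and 74.8 to 11.1 and 13.1 CPM (Log2FC −2.55), and *Cenpm*, a further inner kinetochore protein, from 57.3 and 54.6 to 9.22 and 10.2 CPM (Log2FC −2.52). The libraries of all 3 genes lay apart between the stages. Without cKO sPre-B replicate 1 the Log2FC was −2.44 for *Cenpn* and −2.46 for *Cenpm*, so that *Cenpn* no longer had the lowest value.

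**Figure D2:**
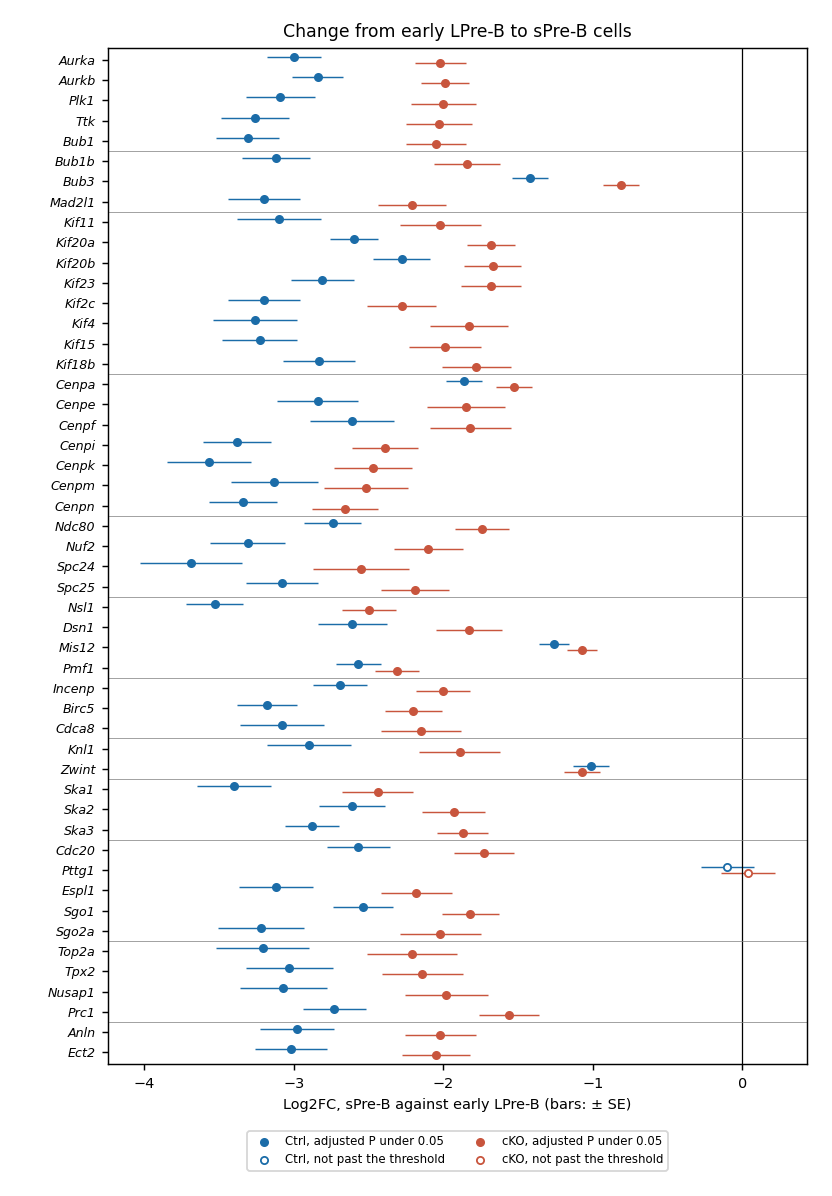
Log2FC with SE of each of the 50 genes between the early LPre- and sPre-B stages, in Ctrl (blue) and cKO (red) mice, with filled points for an adjusted P under 0.05. Blue points lie around −3.03 and red points around −2.0, and *Pttg1* lies near 0 in both.

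Between genotypes in early LPre-B cells, few of the genes passed the test, while most values lay slightly lower in cKO. With the same threshold, 2 of 50 were higher in cKO and 3 lower, shares below the 14.5% and 16.9% over all genes tested in this fit with all libraries. The median Log2FC was −0.28, against −0.06 over all genes, and 43 of the 50 values were negative. For 35 genes both cKO libraries were lower than both Ctrl libraries, against 36.4% of all genes, and for 4 genes, *Nsl1*, *Kif15*, *Cenpk* and *Ska1*, both were higher, against 29.9% of all genes.

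*Nsl1* had 59.0 and 60.6 CPM in Ctrl and 169 and 179 CPM in cKO early LPre-B libraries. Its mean was 174 ± 7.24 CPM (SD, n = 2) in cKO against 59.8 ± 1.16 CPM (SD, n = 2) in Ctrl. The Log2FC was 1.54 (SE 0.17), a 2.91-fold difference, with an adjusted *P* 0.000383 in edgeR's quasi-likelihood fit. *Kif15*, a kinesin that helps keep the spindle bipolar, had 315 and 374 CPM in Ctrl and 567 and 649 CPM in cKO libraries, a Log2FC of 0.82 (SE 0.23, adjusted *P* of 0.0268). Both cKO libraries of either gene were above both Ctrl libraries.

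The 3 genes that were lower were *Cdc20*, *Bub3* and *Kif20a*. *Cdc20*, the activator of the anaphase-promoting complex, had 229 and 223 CPM in Ctrl and 133 and 134 CPM in cKO libraries (Log2FC −0.76, SE 0.20, adjusted *P* 0.0188 in edgeR's quasi-likelihood fit). *Bub3* had 215 and 204 against 142 and 148 CPM (Log2FC −0.53, SE 0.12, adjusted *P* of 0.0101). *Kif20a*, a kinesin of the central spindle, had 248 and 237 against 161 and 163 CPM (Log2FC −0.58, SE 0.16, adjusted *P* of 0.0219), with 1271 exon bases shared with *Cdc23* on the other strand. Replicates of each gene lay close together and the genotypes did not overlap. Without either Ctrl or either cKO early LPre-B library, *Cdc20*, *Kif20a* and *Kif15* no longer passed the threshold (adjusted *P* 0.0583 to 0.129), and *Bub3* no longer passed without replicate 1 of Ctrl (0.0657) or of cKO (0.0685), while *Nsl1* still passed each time. Without 1 of these 4 libraries 1 gene was higher, against 9.06% to 12.6% of all genes. In these 4 fits 0 or 1 gene was lower, against 7.15% to 11.1% of all genes. Both shares lay below those of all genes. Without either Ctrl sPre-B library, which also enter the fit, 4 were higher and 14 lower, against 15.1% and 13.9% of all genes. The share of lower genes was then above that of all genes. With a term for the libraries with Y-linked counts, added after seeing the data, 1 gene was higher, *Nsl1*, and 13 were lower, against 14.2% and 19% of all genes.

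Of the 50 genes, 23 were higher in cKO than in Ctrl sPre-B libraries at an adjusted *P* under 0.05 and none was lower. DESeq2 gave 33 higher and 0 lower, against 19.4% and 18.3% of all genes. In edgeR's quasi-likelihood test, 19.8% of all genes tested were higher and 14.9% lower. The median Log2FC was 0.68, a 1.61-fold difference, against 0.01 over all genes, and 47 values were positive. Both cKO libraries exceeded both Ctrl libraries for 36 genes, against 36.5% of all genes, while 12 overlapped and *Pttg1* and *Zwint* were lower in both.

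The size of this difference depended on which Ctrl sPre-B library was used. Replicate 1 of the Ctrl sPre-B cells was higher than replicate 2 for 49 of the 50 genes, with a median ratio of 1.69, whereas over all genes tested 50.4% were higher in replicate 1 and the median ratio was 1.0. The corresponding ratios were 0.943 in Ctrl early LPre-B, 0.939 in cKO early LPre-B and 0.846 in cKO sPre-B cells. Without Ctrl sPre-B replicate 1, 42 genes were higher in cKO, against 12.7% of all genes, with a median Log2FC of 1.08. Without replicate 2, the one with Y-linked counts, 11 were higher, against 12.8% of all genes, with a median of 0.29, namely *Birc5*, *Bub1*, *Bub1b*, *Cenpk*, *Kif15*, *Kif18b*, *Kif4*, *Ndc80*, *Nsl1*, *Ska1* and *Ttk*. Without cKO sPre-B replicate 2, 7 were higher, against 15% of all genes, so the members' share no longer exceeded that of all genes. Without Ctrl early LPre-B replicate 1 or 2, 15 were higher, against 18.7% and 18.3% of all genes. With the term for Y-linked counts 18 of the 23 remained, against 19.2% of all genes.

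The largest difference was that of *Nsl1*, with 6.34 and 3.99 CPM in Ctrl and 29.3 and 32.4 CPM in cKO sPre-B libraries. The mean was 30.8 ± 2.17 CPM (SD, n = 2) in cKO against 5.16 ± 1.66 CPM (SD, n = 2) in Ctrl; the Log2FC was 2.57 (SE 0.18), or 5.95-fold, with an adjusted *P* 4.91e-05 in edgeR's quasi-likelihood fit. *Nsl1* ranked 390 of 17700 genes by Log2FC in sPre-B cells and 593 in early LPre-B cells. *Kif15* followed with 46.3 and 27.2 against 136 and 171 CPM (Log2FC 2.06, SE 0.24, adjusted *P* of 0.0004), and *Cenpk* with 3.23 and 1.69 against 6.65 and 8.63 CPM (Log2FC 1.63, SE 0.27, adjusted *P* of 0.00213). In each of the 3 genes the lower cKO library stood above the higher Ctrl library.

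**Figure D3:**
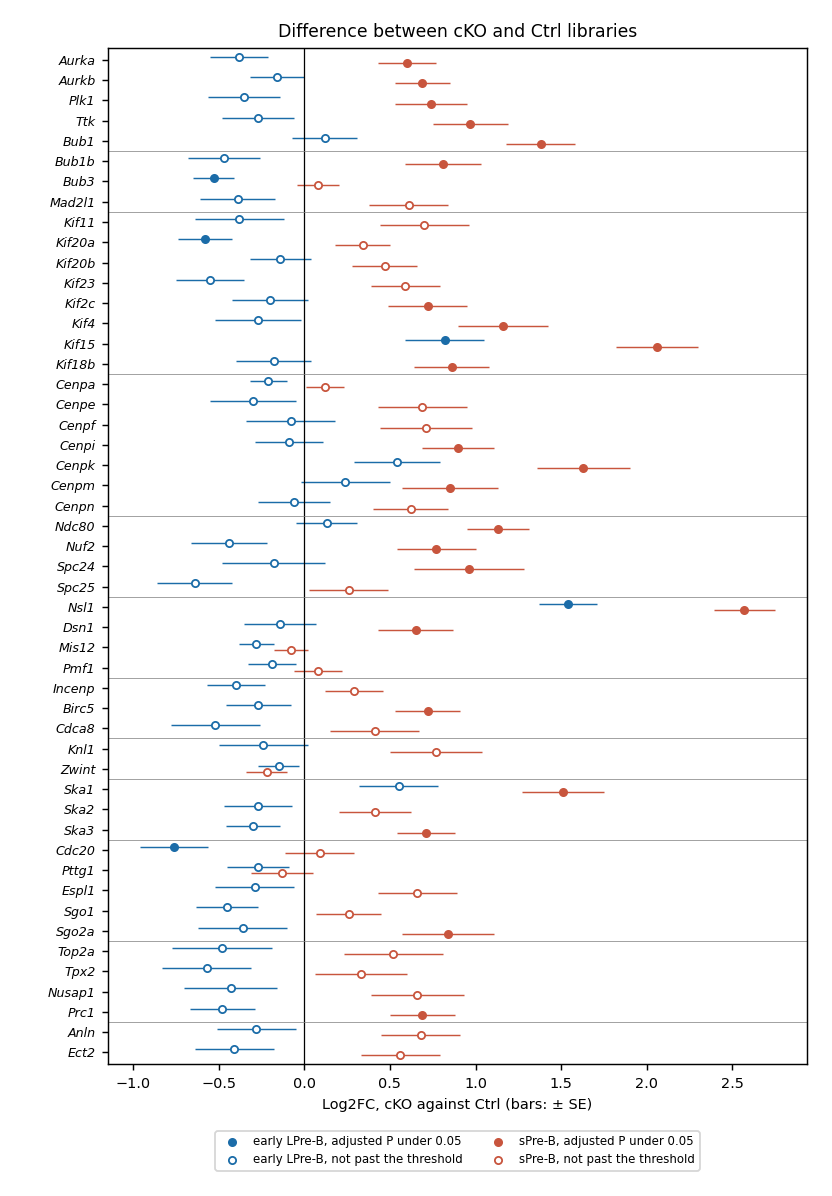
Log2FC with SE of each of the 50 genes between cKO and Ctrl libraries, in early LPre-B (blue) and sPre-B (red) cells, with filled points for an adjusted P under 0.05. Blue points lie mostly below 0 and red points mostly above 0, and *Nsl1* and *Kif15* lie furthest to the right at both stages.

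By role, all 5 mitotic kinases were higher in cKO sPre-B cells, between 0.60 and 1.38 on the log2 scale, against 19.8% of all genes. Without Ctrl sPre-B replicate 2 the call held for *Bub1* and *Ttk* among them and was lost for *Aurka*, *Aurkb* and *Plk1*. *Bub1*, which recruits the other checkpoint proteins to the kinetochore, had the largest difference among them, *Ttk*, the kinase that starts the checkpoint, a Log2FC of 0.97, and *Plk1* one of 0.74. Of the 4 NDC80 genes 3 passed, led by *Ndc80* itself (Log2FC 1.13, with 19.8 and 13.2 against 32.1 and 40.2 CPM), and *Spc25* did not (0.26). Of the 8 kinesins 4 passed, *Kif15*, *Kif4* (1.16), *Kif18b* and *Kif2c*. Of the 7 centromere protein genes, *Cenpk*, *Cenpi* and *Cenpm* passed. In the SKA complex, which couples kinetochores to shortening microtubules, *Ska1* (Log2FC 1.51) and *Ska3* passed. *Ska1* had 4.21 and 2.35 CPM in Ctrl and 8.69 and 10.1 CPM in cKO sPre-B libraries, which did not overlap. The checkpoint group had 1 of 3 (*Bub1b*), the MIS12 complex 2 of 4 (*Nsl1* and *Dsn1*), the passenger complex 1 of 3 (*Birc5*), and the structure group 1 of 4 (*Prc1*). Of the 5 anaphase genes *Sgo2a* alone passed, and in the KNL1 complex and the cytokinesis pair none did. With so few genes in a group, shares such as 1 of 4 or 1 of 5 lie near the 19.8% of all genes. Among the calls nearest the threshold, *Dsn1*, *Spc24* and *Cenpm* had adjusted *P* values of 0.0472, 0.047 and 0.0424 and lost the call with median-ratio factors.

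The difference between the stage transitions of cKO and Ctrl cells was tested as an interaction. It was positive for 49 of the 50 genes, with a median of 0.98 against 0.07 over all genes tested. After adjustment over all genes, 1 gene passed upward, *Bub1*, and none downward in edgeR's quasi-likelihood test, against 2.64% and 1.6% of all genes. DESeq2 called 32 genes upward and 0 downward, against 6.35% and 4.42% of all genes with an adjusted *P*. *Bub1* had 169 and 196 CPM in Ctrl and 188 and 209 CPM in cKO early LPre-B libraries, and 22.6 and 14.1 CPM in Ctrl and 44.6 and 51.2 CPM in cKO sPre-B libraries. The genotypes overlapped at the first stage and lay apart at the second, and the interaction was 1.26 (SE 0.27, adjusted *P* of 0.0415). That of *Nsl1* was 1.03 (SE 0.24, adjusted *P* of 0.0524) and did not pass. Without Ctrl sPre-B replicate 1 the number passing upward was 39, against 3.09% of all genes. Without any other single library it was 0, against 0.466% to 1.69% of all genes.

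The MIS12 complex joins the inner kinetochore to the KNL1 and NDC80 complexes and is built from *Mis12*, *Dsn1*, *Pmf1* and *Nsl1*. In early LPre-B cells none of the other 3 subunits passed the threshold between genotypes. *Dsn1* had 47.7 and 49.3 CPM in Ctrl and 39.6 and 48.6 CPM in cKO libraries there (Log2FC −0.14, SE 0.21), *Mis12* had 70.5 and 68.9 against 55.3 and 59.7 CPM (−0.28, SE 0.10), and *Pmf1* had 117 and 95.9 against 93.2 and 93.7 CPM (−0.19, SE 0.14). All 3 values were negative where that of *Nsl1* was positive. In sPre-B cells *Dsn1* had 9.1 and 6.74 against 9.81 and 15 CPM (0.65, SE 0.22, adjusted *P* 0.0472 in edgeR's quasi-likelihood fit). Leaving out 1 library at a time, this Log2FC of *Dsn1* ranged from 0.31 to 0.92. *Mis12*, with 231 exon bases shared with *Derl2*, had 31.1 and 27.0 against 26.2 and 28.7 CPM (−0.08, SE 0.10), and *Pmf1* had 20.0 and 15.9 against 17.5 and 20.3 CPM (0.08, SE 0.14). The genotypes overlapped for *Mis12* and *Pmf1* at this stage.

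**Figure D4:**
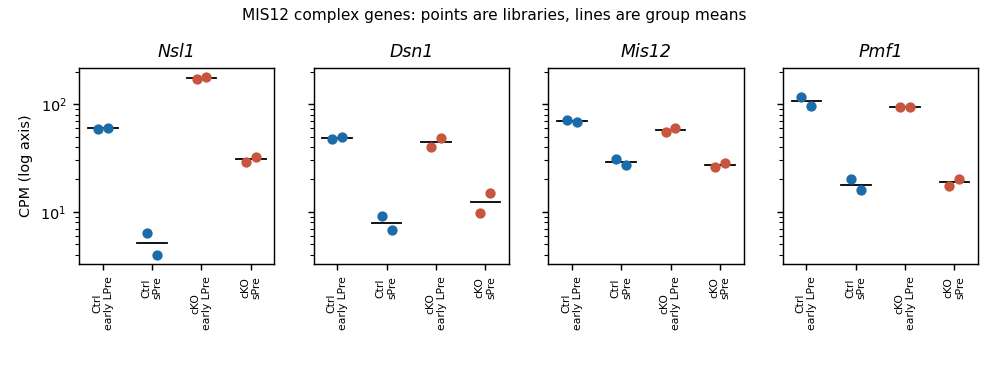
CPM on a log axis of the 4 MIS12 complex genes, with a point for each library (blue Ctrl, red cKO) and a line for each group mean. *Nsl1* goes from 59.8 CPM in Ctrl to 174 in cKO early LPre-B cells, and from 5.16 to 30.8 CPM at the sPre-B stage, while the group means of *Mis12* and *Pmf1* stay close between genotypes.

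A ratio within a library does not depend on its scaling. *Nsl1* made up 20.1% and 22.1% of the counts of the complex in Ctrl early LPre-B, 9.52% and 7.44% in Ctrl sPre-B, 47.3% and 47.0% in cKO early LPre-B and 35.4% and 33.6% in cKO sPre-B libraries. Every cKO library was thus above every Ctrl library, at either stage. Per kilobase of exon, its share was 14.3% and 15.7%, 6.23% and 4.8%, 37.5% and 37.1%, and 25.7% and 24.3% in the same order. On the log2 scale, *Nsl1* minus the mean of the other 3 genes was −0.25 in Ctrl and 1.49 in cKO cells of the early stage, and −1.58 and 0.72 at the later one. The difference over both stages was 2.02, or 4.04-fold, with an exact two-sided permutation *P* of 0.0556 for genotype labels permuted within stages, the smallest that the 36 arrangements allow. It was 1.73 within early LPre-B cells and 2.30 within sPre-B cells, where 6 arrangements cannot give less than 0.333. Leaving out single libraries gave 1.94 to 2.09.

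*Nsl1* lies on chromosome 1 from 191062996 to 191084558 on the plus strand (GRCm38), and starts beside *Tatdn3*, a putative DNase gene on the minus strand. The RefSeq spans of the genes share 80 bases, and reads were counted without strand, so reads there cannot be told apart. *Tatdn3* had 330 and 283 counts in Ctrl early LPre-B, 214 and 156 in Ctrl sPre-B, 646 and 646 in cKO early LPre-B, and 582 and 622 in cKO sPre-B libraries. *Nsl1* had 8157 and 4732, 536 and 281, 18405 and 23297, and 2704 and 4051 counts in the same order, more than *Tatdn3* in every library. *Tatdn3* was also higher in cKO, with a Log2FC of 0.86 (SE 0.24, adjusted *P* of 0.0263) in early LPre-B and 1.25 (SE 0.25, adjusted *P* of 0.00516) in sPre-B cells by edgeR's quasi-likelihood test. Unlike *Nsl1*, it did not pass between stages in Ctrl (Log2FC −0.34, adjusted *P* of 0.265) or in cKO (0.05, adjusted *P* of 0.871). In GENCODE M21, *Nsl1* has 3 transcripts, all coding and none labelled as an NMD target, and its longest 3′ untranslated region has 4025 bases. The median of that length was 666.5 bases over the 50 genes and 946 over 20845 coding genes. The longest of *Mad2l1*, which was not called between genotypes at either stage, has 6802 bases, and that of *Kif15* has 606. An exon junction more than 50 bases after the stop codon is a known trigger of NMD. In transcripts of the protein-coding type it was annotated in none of the 50 genes and in 1.1% of coding genes. Transcripts labelled as NMD targets are a separate type and were not searched, so this count cannot show that the trigger is absent. Of the 50 genes 15, *Kif15* among them, have a transcript labelled as an NMD target, against 20.8% of protein-coding genes. A link of these features to the levels was not tested.

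Because most of the 50 genes moved together, each was also set against the median of the other 49 in the same library, a scaling added after seeing the data. On this scale 8 genes were higher in both cKO libraries than in both Ctrl libraries at each stage, against 2.47% of all genes tested, and 9 were lower, against 10.4%. Centring on the genes' own median balances higher and lower values among them and shifts every other gene by that median, so these shares are set by the scaling and nothing is read from them. The other 33 overlapped in at least 1 stage, and 44 genes differed by less than 0.5 over both stages. *Nsl1* was 1.99 higher in early LPre-B and 1.70 higher in sPre-B cells, a 3.6-fold difference over both. *Kif15* was 1.15 and 1.33 higher (2.36-fold over both), *Cenpk* 0.90 and 0.70, *Ska1* 0.92 and 0.63, and *Bub1* 0.50 and 0.75. *Ndc80*, *Kif18b* and *Ttk* differed by 0.42, 0.15 and 0.14 over both stages. The lower genes were led by *Cdc20*, at −0.52 and −0.64, and *Bub3*, at −0.20 and −0.68, followed by *Spc25*, *Kif20a*, *Tpx2*, *Sgo1*, *Incenp*, *Cdca8* and *Top2a*. *Top2a* is lower in cKO sPre-B cells on this scale by 0.15 and has a positive Log2FC of 0.52 on the other.

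**Figure D5:**
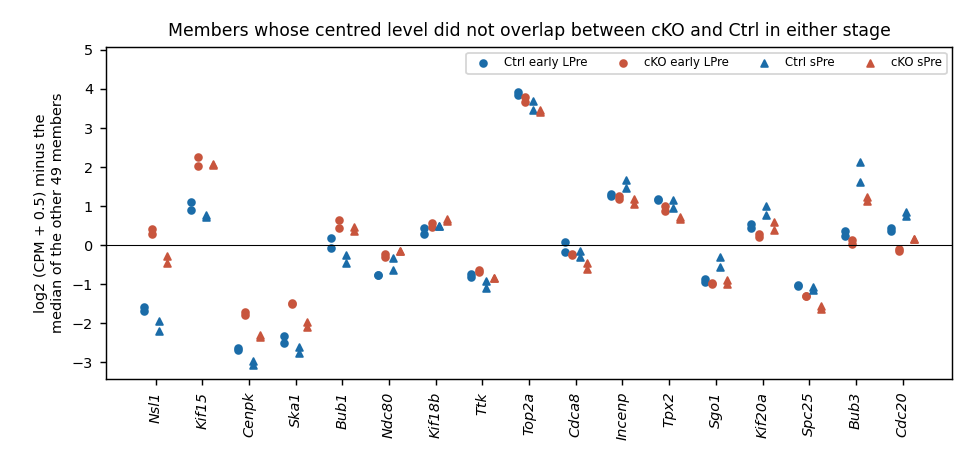
Log2 of CPM plus 0.5 minus the median of the other 49 genes, in each library, for the 17 genes whose cKO (red) and Ctrl (blue) libraries did not overlap in early LPre-B (circles) or sPre-B (triangles) cells. *Nsl1* and *Kif15* show the widest gaps between red and blue, and from *Top2a* to the right red lies below blue.

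Per kilobase of merged exons, levels in Ctrl early LPre-B cells ran from 4.83 CPM per kb for *Pttg1* to 281 for *Top2a*, the topoisomerase that untangles chromosomes, with a median of 31.2. The medians were 4.48 in Ctrl sPre-B, 27.6 in cKO early LPre-B and 7.62 in cKO sPre-B cells, and *Top2a* was highest in all 4 groups. *Nsl1* was in place 47 of 50 in Ctrl early LPre-B and 49 in Ctrl sPre-B cells, with 11.3 and 0.973 CPM per kb. In cKO cells it was in places 22 and 28, with 32.8 and 5.82 CPM per kb. *Cenpk* was in places 49 and 50 in Ctrl cells and stayed at 48 and 50 in cKO cells.

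Related genes outside the 50 fell between the stages as well. In Ctrl cells, 16 of 17 other inner kinetochore genes, 11 of 13 other outer kinetochore and checkpoint genes, 16 of 16 other spindle and cytokinesis genes and 18 of 19 condensin and cohesin genes were lower in sPre-B cells, against 31.1% of all genes tested. The anaphase-promoting complex, the ubiquitin ligase that *Cdc20* activates, had 12 of 17 genes lower, with a median Log2FC of −0.76. Against 29.1% of all genes, 3 genes of these and the mitotic entry list were higher, namely *Nipbl*, which loads cohesin (Log2FC 0.58), *Anapc16* of the anaphase-promoting complex (0.24) and *Lin37* of the MuvB complex (0.42). Between genotypes in sPre-B cells, 10 of 17, 6 of 13, 7 of 16, 7 of 19 and 7 of 17 genes of these lists were higher in cKO, in the same order with the anaphase-promoting complex last, against 19.8% of all genes. *Mad2l1bp*, which takes part in silencing the checkpoint, and *Wapl*, which releases cohesin, were lower (Log2FC −0.63 and −0.79), against 14.9% of all genes. Of 14 mitotic entry regulators 12 fell in Ctrl and 5 were higher in cKO sPre-B cells, led by *Mybl2*, a MuvB partner, with 15.6 and 11.3 against 39.7 and 43.1 CPM (Log2FC 1.62). *Kntc1*, which brings dynein to the kinetochore, had the largest difference among the outer kinetochore genes, with 16.4 and 8.84 against 42.4 and 47.3 CPM (Log2FC 1.83), and *Cenpu* among the inner ones, with 11 and 12 against 26.8 and 28.4 CPM (Log2FC 1.26). The libraries of these 3 genes did not overlap between genotypes in sPre-B cells.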

How the data were processed

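Total RNA of both sorted stages was depleted of ribosomal RNA and sequenced in 8 libraries. The authors used Trim Galore for trimming and HISAT2 for alignment to mm10 (pairs, strand not used), and deposited the raw featureCounts counts per gene. Their methods name edgeR without the test. Of 27179 Entrez identifiers, 25275 were named from RefSeq. Counts were fitted with edgeR 4.0.16 in R 4.3.3 (TMM factors 0.862 to 1.09, filterByExpr, 17700 genes, 1 mean per group, quasi-likelihood F test, two-sided, Benjamini-Hochberg adjustment over all genes). CPM values use the TMM library sizes. SE is the absolute Log2FC divided by the square root of the F statistic of its test. Alternatives were the likelihood-ratio test, DESeq2 1.42.0, median-ratio factors, no filter, no immunoglobulin genes, a replicate block and each library left out. Full values were given for the MIS12 complex and, per comparison, up to 3 called members in each direction with the largest Log2FC and libraries that did not overlap. The members and lists were chosen with earlier results of these data known. For the overlap of exons and transcripts GENCODE M21 was used. Exons of 13 members overlap another gene, so their unstranded counts are uncertain.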

Additional observations from a re-analysis of the deposited data

Results flagged for a closer look

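*Bub1* was the one member that passed the threshold upward in the interaction term, 1 of 50 against 2.64% of all genes tested. Its interaction was 1.26 (SE 0.27, adjusted *P* 0.0415 in edgeR's quasi-likelihood fit). *Kif4* (1.43) and *Bub1b* (1.28) had larger values that did not pass, and DESeq2 called 32 members upward, against 6.35% of all genes. The cKO against Ctrl Log2FC of *Bub1* was 0.12 in early LPre-B and 1.38 in sPre-B cells. Without Ctrl sPre-B replicate 1 the interaction was 1.56 (adjusted *P* 0.00711), and without each of the other libraries in turn it lay between 0.89 and 1.36 with an adjusted *P* between 0.063 and 0.144.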

How the results depend on the processing

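Both stage transitions gave 49 lower and 0 higher members under every alternative. Leaving out 1 library at a time, the median Log2FC lay between −3.44 and −2.59 in Ctrl. For cKO against Ctrl in early LPre-B cells, 1 to 4 members were then higher, against 9.06% to 15.1% of all genes. Lower members numbered 0 to 14, against 7.15% to 15.1% of all genes. The 14 arose without either Ctrl sPre-B library, against 13.9% of all genes. In sPre-B cells 7 (without cKO sPre-B replicate 2) to 42 were higher, against 15% and 12.7% of all genes in these fits. The median there lay between 0.29 and 1.08. The interaction passed for 0 to 39 members, with a median between 0.55 and 1.34. The 39 arose without Ctrl sPre-B replicate 1, against 3.09% of all genes. Every other such fit gave 0, against 0.466% to 1.69% of all genes. Where such a fit leaves 1 library in a group, that library is assumed to vary like the other groups. The cause of these shifts was not tested. In early LPre-B cells the lower members numbered 5 by the likelihood-ratio test, 6 by DESeq2, 8 without the filter (4 higher) and 13 with the term for Y-linked counts (1 higher), against 17.2%, 18.2%, 13.3% and 19% of all genes. Without the filter 35 were higher in sPre-B cells, against 15.8%. The interaction passed for 21 members by the likelihood-ratio test, 32 by DESeq2, 36 without the filter, 4 without immunoglobulin genes and 14 with the term for Y-linked counts, against 5.67%, 6.35%, 4.71%, 2.96% and 4.51% of all genes.

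Replicate numbers are shared by the groups, but the labels do not say that a number marks a mouse or day. The correlation of deviations of same-numbered libraries was 0.506 between the Ctrl stages, 0.374 between the cKO stages, 0.123 between genotypes in early LPre-B and 0.000958 in sPre-B cells. With the replicate number as a block, 23 members were higher in sPre-B cells (22 of them shared), 2 were higher and 3 lower in early LPre-B cells, and the interaction passed for 2, *Bub1* and *Kif20a*, against 21%, 15.7%, 18.4% and 3.38% of all genes. Over named members and comparisons, 875 alternative values kept their direction and side of the threshold, 49 lost the call, 39 gained it and 12 changed sign, all of members not called in that comparison. Leaving out 1 library at a time, the Log2FC of cKO against Ctrl ranged from −0.11 to 0.02 for *Cenpn* and −0.29 to 0.01 for *Dsn1* in early LPre-B cells, and from −0.10 to 0.19 for *Bub3*, −0.25 to 0.44 for *Cdc20* and −0.12 to 0.22 for *Pmf1* in sPre-B cells. With the term for Y-linked counts it was −0.09 for *Cenpm* in early LPre-B cells, and −0.01, −0.06 and −0.07 for *Bub3*, *Cdc20* and *Pmf1* in sPre-B cells. Depth was not limiting, since the lowest member count was 119, for *Cenpk* in Ctrl sPre-B replicate 2.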
